A study of Mus musculus with 28 samples.

Results

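The rows described here are the mouse microRNAs (miRNAs) miR-297, miR-466, miR-467 and miR-669, the names carried by the large miRNA cluster of the Sfmbt2 gene. They were chosen by name alone, as every miRNA row with 1 of these 4 names in the 3 deposited count tables, and 133 of the 1408 miRNA rows met that rule. The study sequenced the small RNA of mouse sperm in 28 libraries, using total RNA extracted with Trizol and a Qiaseq small RNA preparation. The wild type (WT) table holds 4 control libraries without alcohol exposure, 4 at a low, 2 at a medium and 2 at a high dose of alcohol. The alcohol amounts and the strain and age of the animals are not stated in the labels. The second table holds 4 alcohol-exposed (ethanol) and 4 unexposed (control) libraries of mice labelled Nrf2-/-, a knockout of the antioxidant transcription factor Nrf2. The last table holds 4 Nrf2 liver KO libraries, in which a floxed Nrf2 gene was combined with the Albumin-Cre transgene, driven by a hepatocyte promoter, and 4 Nrf2 flox libraries with the floxed gene alone. Sperm were thus not the cells meant to lose Nrf2 in the liver KO mice, and both groups of that table carry the floxed allele. The labels do not say that libraries of 1 group came from separate animals, so every p-value below measures the spread between libraries only.

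A miRNA is cut from a hairpin precursor by Drosha and Dicer, and either arm of the hairpin, 5p or 3p, can be loaded on an Argonaute protein, where bases 2 to 8 (the seed) select target transcripts. Sfmbt2 encodes a Polycomb group protein, and in mice it is expressed from the paternal allele in extra-embryonic tissues, where the many tandem hairpins of its intron are processed into miRNAs of the placenta. The hairpins are repeated copies of one another and rich in CA and UG repeats, so a short read can match several of them. In RefSeq (GRCm38.p6), 81 hairpin genes carry these numbers, 71 of them lie inside Sfmbt2 on chromosome 2, and 0 of the 81 overlap a Sfmbt2 exon. The other 10 lie elsewhere in the genome. By name, 122 of the 133 rows belong to hairpins inside Sfmbt2 and held 98.9% of the counts of all 133 rows. Another 5 rows, with 1.07% of the counts, have copies both inside and outside, 5 rows with 27 counts in all 28 libraries lie outside, and 1 row could not be matched.

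Sequences were at hand for 8 miRNAs of these numbers, all from loci outside Sfmbt2, and 4 of them are among the 68 rows with a mature name. They are shown because they make the repeat content of the family visible, with the seed in capitals, 5′ to 3′, as given by RefSeq for GRCm38.p6.
miR-466i-3p (chr13:17747552-17747573, + strand): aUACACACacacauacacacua
miR-466j (chr10:60960802-60960824, + strand): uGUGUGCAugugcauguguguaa
miR-466k (chr3:85467396-85467418, + strand): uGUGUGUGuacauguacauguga
miR-467h (chr9:115381898-115381919, + strand): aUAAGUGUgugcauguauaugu
All 8 sequences hold CACACA or GUGUGU, searched on the strand of the miRNA, against 29 of the 1674 mature mouse sequences of the same table (1.73%). Their 8 seeds are all different. These 4 miRNAs had 1, 6, 18 and 1 reads over all 28 libraries in the order shown, and the abundant members named below carry names of hairpins that lie inside Sfmbt2 or have copies there.

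Depth was 1993933 to 11119711 counts per library, of which 227577 to 2744712 were miRNA counts. miRNAs made up 4.26% of the counts in WT control 1 and 11.4% to 21.1% in the other WT libraries, 21.5% to 54.5% in the Nrf2-/- libraries, and 11.4% to 22.7% in the Nrf2 liver KO and flox libraries. The structural RNA class held 8425767 of the 11119711 counts of WT control 1, and 572977 to 2656229 counts in the other WT libraries. All 10 transcripts of the sperm and spermatid list (such as Prm1, Prm2 and Odf1) were detected in every library. Their summed exon level was 242 CPM (CPM are counts scaled to a common library total, here that of all counts) in WT control 1 and 451 to 668.2 CPM in the other WT libraries. Epididymal epithelium transcripts (8 genes, such as Crisp1 and Rnase9, of which up to 4 were at 0 in a library) summed to 37.4 to 1827 CPM. Where marker sums did not overlap between 2 groups compared by a test, they are given beside that test.

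Nrf2 is encoded by Nfe2l2, whose exon rows had 4, 1, 9 and 10 reads in Nrf2-/- ethanol libraries, 20, 17, 0 and 5 in Nrf2-/- controls and 4 to 47 in WT libraries. As CPM of all counts this was 0 to 4.15 in the Nrf2-/- and 0.615 to 7.52 in the WT libraries, so the 2 genotypes overlapped. The exons of Nfe2l2 had 0, 6, 22 and 4 reads in Nrf2 liver KO libraries, against 11, 9, 20 and 17 in Nrf2 flox libraries. The labels do not say which part of the gene is deleted and the exons are counted together, so these reads do not check the genotype labels.

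miR-669a-3p was the most abundant member. It ranked 6th of 1127 miRNA rows in the WT table, at a mean of 33251 CPM (here and below relative to the miRNA counts of a library), and held 63.3% of all member counts there. It ranked 18th of 899 rows in the Nrf2-/- table at 5574 CPM, with 55.3% of the member counts. In the Nrf2 liver KO and flox table it ranked 108th of 819 rows at 465.6 CPM, and the most abundant member was miR-669c-5p at 700 CPM, with 22.8% of the member counts. The 5 rows that followed miR-669a-3p in mean CPM over all 28 libraries were miR-466b-3p, miR-466c-3p, miR-467a-3p, miR-669a-5p and miR-466a-3p, which averaged 8870, 2510, 1644, 872 and 1001 CPM in the WT table. The 6 most abundant rows of each table held 91.3% of the member counts in WT, 86.0% in Nrf2-/- and 73.0% in Nrf2 liver KO and flox. Many rows held few reads, with 48 of 119, 67 of 115 and 21 of 61 listed rows under 10 reads over the libraries of those tables.

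Library by library, miR-669a-3p had 8022, 38209, 33285 and 31565 CPM in WT control, 43225, 28671, 41330 and 40404 CPM in low-dose, 36824 and 44544 CPM in medium-dose and 24904 and 28032 CPM in high-dose libraries. It had 3326, 3047, 4127 and 3113 CPM in Nrf2-/- ethanol libraries, against 2351, 2923, 17864 and 7843 CPM in Nrf2-/- controls. It had 240, 207, 548 and 561 CPM in Nrf2 liver KO libraries, against 680, 412, 371 and 705 CPM in Nrf2 flox libraries. WT control 1 and Nrf2-/- controls 3 and 4 stood apart from the other libraries of their groups. miR-467a-3p had 409, 1924, 1911 and 1363 CPM in WT control, 2831, 1559, 2327 and 1858 CPM in low-dose, 1601 and 1497 CPM in medium-dose and 1078 and 1367 CPM in high-dose libraries. It had 285, 456, 443 and 384 CPM in Nrf2-/- ethanol libraries, against 272, 309, 1522 and 985 CPM in Nrf2-/- controls. It had 11.2, 16.2, 49.1 and 35 CPM in Nrf2 liver KO libraries, against 59.5, 24.1, 22.6 and 70.2 CPM in Nrf2 flox libraries. The same libraries stood apart, and the Nrf2 liver KO and flox values rest on few reads. miR-669a-5p had 367, 879, 1490 and 1098 CPM in WT control, 981, 975, 812 and 535 CPM in low-dose, 727 and 1103 CPM in medium-dose and 674 and 821 CPM in high-dose libraries. It had 490, 460, 636 and 416 CPM in Nrf2-/- ethanol libraries, against 359, 343, 1259 and 592 CPM in Nrf2-/- controls. It had 7.45, 0, 4.91 and 9.33 CPM in Nrf2 liver KO libraries, against 8.5, 5.66, 6.46 and 5.11 CPM in Nrf2 flox libraries. miR-669a-5p was likewise lowest in WT control 1 among the WT libraries, and nearly absent from the Nrf2 liver KO and flox libraries. The 3 abundant miR-466 rows are described by their sum and its division below, because miR-466b-3p and miR-466c-3p kept a near-constant ratio in most libraries.

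The share of the 3p arm differed between the tables. It held 89.1% to 96.2% of the member counts in the 12 WT libraries, 73.8% to 84.2% in the 8 Nrf2-/- libraries and 39.6% to 67.9% in the 8 Nrf2 liver KO and flox libraries, where liver KO 1 and 2 had less than 50% on 3p (48.1% and 39.6%). Most member rows with the same counts in the Nrf2 liver KO and flox table, described below, are 3p rows. The 3p share of that table may therefore count some reads more than once. The arms split by number as well. In WT libraries the 3p share of both arms was at least 95.8% for miR-466 and at least 89.1% for miR-669, while miR-467 was divided between its arms, with 48.1% to 61.7% on 3p in 11 WT libraries and 35.01% in WT control 4.

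The main miR-466 3p rows kept narrow proportions. In 18 of the 20 WT and Nrf2-/- libraries, miR-466b-3p, which RefSeq assigns to 8 hairpin genes, held 69.4% to 70.5% of the counts of the 5 rows miR-466a-3p, miR-466b-3p, miR-466c-3p, miR-466e-3p and miR-466p-3p. miR-466c-3p held 19.7% to 20.98%, and miR-466a-3p and miR-466p-3p together held 9.41% to 10.0%. These narrow ranges held in libraries of every treatment and both genotypes. Within the last pair the split was not fixed, with miR-466p-3p at 0.544% to 7.63% and miR-466a-3p at 1.83% to 9.49%. Other rows of 1 number and arm did not keep such proportions, with miR-669a-3p at 34.0 to 146 times the counts of miR-669o-3p in WT and 64.99 to 322 times in Nrf2-/- libraries, and miR-297a-3p at 1.40 to 3.13 times those of miR-297b-3p in WT libraries. In all 8 Nrf2 liver KO and flox libraries, each of the 5 rows held 19.8% to 20.4%. There the 3 rows miR-466b-3p, miR-466c-3p and miR-466p-3p had the same count in every library (322 reads in all, each), as did miR-466a-3p and miR-466e-3p (325 each), miR-297a-3p, miR-297b-3p and miR-297c-3p (156 each), miR-467a-3p and miR-467d-3p (186 each), miR-669a-3p and miR-669o-3p (2415 each) and miR-669a-5p and miR-669p-5p (31 each). Of the rows with at least 20 reads in that table, 14 of 34 members shared all counts with another row of the same number and arm, against 4 of 390 other miRNA rows, and 0 rows did so in the other tables. The Nrf2 liver KO and flox table also lists 0 rows with a precursor name, against 55 in each of the others. The labels do not state how reads with several matches were counted. A difference between members of 1 number and arm can therefore not be taken as one between separately measured miRNAs, and sums over rows in the Nrf2 liver KO and flox table may count some reads more than once.

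**Figure D1:**
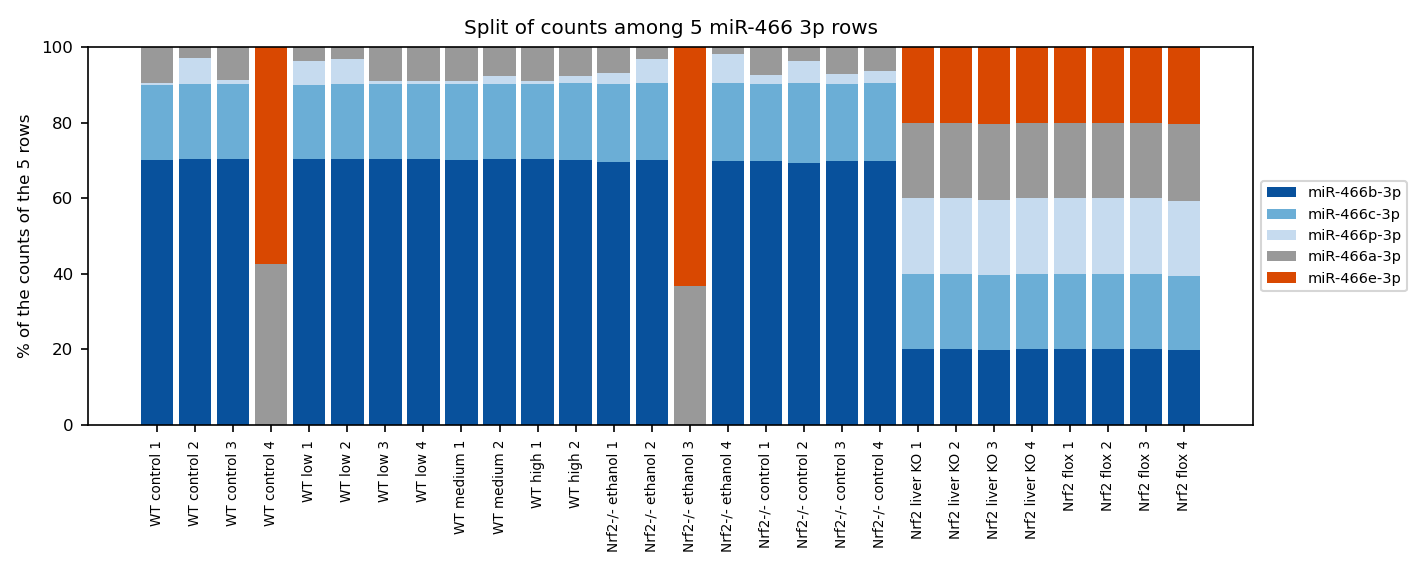
Share of the counts of 5 miR-466 3p rows (y axis, percent, bars stacked to 100) in each of the 28 libraries (x axis). The split is 69.4% to 70.5% miR-466b-3p in 18 WT and Nrf2-/- libraries, miR-466a-3p and miR-466e-3p alone in WT control 4 and Nrf2-/- ethanol 3, and near 20% for each row in the Nrf2 liver KO and flox libraries.

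The 2 exceptions were WT control 4 and Nrf2-/- ethanol 3. In WT control 4, miR-466b-3p, miR-466c-3p and miR-466p-3p were at 0 where 10200, 2885 and 469.7 reads were expected from the other libraries, and miR-466e-3p had 1879 reads, against 0 to 6 in the other 11 WT libraries. In Nrf2-/- ethanol 3 the same 3 rows were at 0, with 1937, 573.4 and 111.8 reads expected, and miR-466e-3p had 442 reads against 0 to 3 in the other 7 Nrf2-/- libraries. The sum of the miR-466 3p rows was 3501 CPM in WT control 4, below the 7819 to 14180 CPM of the other WT controls, and 347 CPM in Nrf2-/- ethanol 3, below the 890 to 1168 CPM of the other ethanol libraries. The reads on miR-466e-3p were fewer than those missing from the other 3 rows in both libraries. Other members at 0 that met the rule for a gap, given with the processing, were 1 row in each of 3 libraries. They were miR-297a-3p in Nrf2-/- control 3 (59.21 reads expected, with the whole miR-297 3p sum at 0 CPM), miR-467a-5p in Nrf2-/- control 4 (93.73 expected) and miR-467c-5p in Nrf2-/- ethanol 4 (255.3 expected). Members account for 3 of the 147 such entries in the WT table and 6 of the 57 in the Nrf2-/- table, and the Nrf2 liver KO and flox table has 0. Without WT control 4, the log2 fold change of the miR-466 3p sum was 0.60 at the low, 0.54 at the medium and 0.17 at the high dose, against 0.76, 0.67 and 0.38 with it. Without Nrf2-/- ethanol 3 it was -0.76 in Nrf2-/-, against -0.84 with it. Without Nrf2-/- control 3 the value of the miR-297 3p sum was -0.10 in Nrf2-/-, against 0.32 with it.

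As a share of miRNA counts, the members differed between the tables. They made up 4.37% ± 1.82 in WT controls (SD, n = 4), 6.13% ± 0.95 at the low dose (n = 4), 6.27% ± 0.67 at the medium dose (n = 2) and 4.35% ± 0.33 at the high dose (n = 2). They made up 0.624% ± 0.029 in Nrf2-/- ethanol and 1.34% ± 1.11 in Nrf2-/- control libraries (n = 4 each), and 0.273% ± 0.077 in Nrf2 liver KO and 0.318% ± 0.080 in Nrf2 flox libraries (n = 4 each). The lowest WT library, control 1 at 1.81%, overlapped the Nrf2-/- controls, whose highest library, control 3, was at 2.83%. The gap between tables depended on the denominator. As a share of all counts, members made up 0.557% ± 0.358 in WT control, 0.348% ± 0.185 in Nrf2-/- control and 0.0591% ± 0.0257 in Nrf2 flox libraries. On that scale WT libraries ran from 0.0773% to 1.49% and Nrf2-/- libraries from 0.193% to 0.609%. Genotype and table cannot be told apart, so these levels were not tested against each other. Among the 33 arm-named rows that averaged at least 10 CPM in a control set, 0 of 20 3p rows but 7 of 13 5p rows averaged more in Nrf2-/- control than in WT control libraries. Some rows entered only through the set where they were high. These were rows such as miR-669o-5p (11.6 CPM in Nrf2-/-, 5.54 in WT control), miR-466p-5p (1.75 and 19.3) and miR-669b-3p (12.9 in flox, 2.49 in WT control). Of the 20 3p rows, miR-466h-3p was at 0 in both WT control and Nrf2-/- control and entered only through flox (12.95 CPM). The counts here and the ratios below thus partly follow from that choice, and the share over all miRNA rows was not computed. The median ratio of Nrf2-/- control to WT control was 0.166 over the 3p rows and 1.01 over the 5p rows. miR-669a-3p averaged 7745 CPM in Nrf2-/- control and 27770 CPM in WT control libraries, while miR-669c-5p averaged 600 ± 624 CPM in Nrf2-/- control and 388 ± 156 CPM in WT control libraries (SD, n = 4 each). The ratio of Nrf2 flox to WT control had a median of 0.284 over 19 3p rows and 0.218 over 13 5p rows. Smooth muscle and fibroblast transcripts (6 genes, such as Acta2) did not overlap, at 149 to 328 CPM of all counts in Nrf2 flox and 12.6 to 50.7 CPM in WT control. Nor did sperm (552 to 700 and 242 to 532 CPM) and epididymal transcripts (620 to 790 and 224 to 613 CPM). Their part in these ratios was not tested. Rows were matched to hairpin genes by name, which missed copies of some miRNAs. miR-467a was matched to 1 gene, although the precursor rows mir-467a-2 to mir-467a-10 each belong to a hairpin gene inside Sfmbt2. The ratios are therefore not split by copies. Among the low ratios were 0.0195 for miR-669a-3p, 0.00671 for miR-669a-5p, 0.0121 for miR-467a-5p and 0.0315 for miR-467a-3p. Ratios above 1 were found for 6 3p rows and 2 5p rows, among them 5.17 for miR-669b-3p, 3.31 for miR-466f-3p and 1.72 for miR-669c-5p. Since rows such as miR-669a-3p and miR-669o-3p had the same counts in the Nrf2 liver KO and flox table only, these ratios also carry that difference in counting. The X-linked cluster of testis miRNAs (44 rows, such as those of miR-465, miR-743 and miR-880) made up 0.396% ± 0.085 of miRNA counts in Nrf2-/- ethanol and 1.21% ± 1.02 in Nrf2-/- control libraries. It was at 6.34% ± 0.40 in Nrf2 liver KO and 5.79% ± 0.44 in Nrf2 flox libraries, within the 1.63% to 11.9% seen in WT libraries. As counted, the X-linked cluster thus did not share the low member share of that table. Its rows miR-465a-3p and miR-465b-3p also had the same counts there (38698 reads each), so its share may count some reads more than once.

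**Figure D2:**
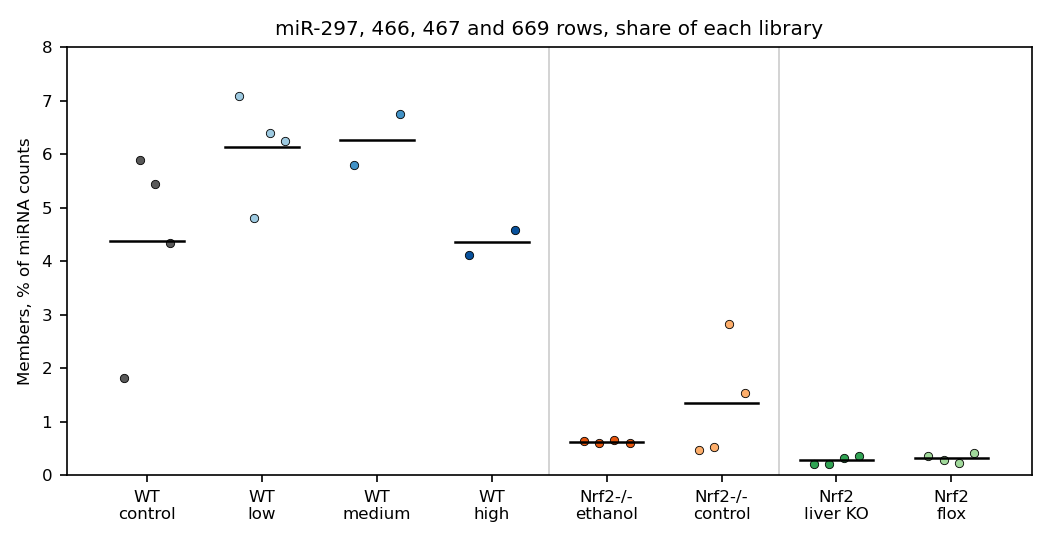
Share of miRNA counts on the 133 member rows (y axis, percent) in each library, by group (x axis), with points for libraries and bars for group means. WT libraries lie between 1.81% and 7.08%, Nrf2-/- libraries between 0.468% and 2.83% and Nrf2 liver KO and flox libraries between 0.202% and 0.403%.

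In WT sperm after the low dose, the 3p sums of all 4 numbers averaged higher than in controls, but none passed the test. The miR-669 3p sum was 44255, 29229, 42183 and 41227 CPM in low-dose libraries 1 to 4, against 8102, 38940, 33852 and 32664 CPM in WT controls 1 to 4. WT control 1 stood far below all others, and the other 3 controls lay inside the range of the low-dose libraries. The miR-466 3p sum was 18463, 13163, 14781 and 15994 CPM at the low dose, against 7819, 14105, 14180 and 3501 CPM in WT controls, where the last value is the library with the missing rows. The miR-467 3p sum was 2872, 1591, 2385 and 1902 CPM at the low dose, against 414, 1957, 1938 and 1438 CPM in WT controls. The miR-297 3p sum was 1272, 897, 1103 and 884 CPM at the low dose, against 374, 819, 848 and 1028 CPM in WT controls. The groups overlapped for each of these sums. Red blood cell transcripts (6 genes, such as Hba-a1 and Alas2) did not overlap, at 62.4, 63.8, 39.5 and 34.7 CPM of all counts in low-dose libraries, against 1.89, 3.66, 4.01 and 13.5 CPM in WT controls. Of the 6, 0 to 1 were at 0 in a low-dose and 0 to 3 in a control library, and their part in the member levels was not tested. On the 5p arm the miR-669 sum averaged 1348 ± 288 CPM at the low dose and 1499 ± 445 CPM in controls, and the miR-467 sum 1664 ± 386 CPM at the low dose and 1451 ± 961 CPM in controls (SD, n = 4 each).

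By edgeR's quasi-likelihood test with Benjamini-Hochberg adjustment at 0.05, 0 of the 41 member rows tested passed at the low dose (0% of all 338 miRNA rows), and 0 of the 12 number-and-arm sums (0% of 261 sums). Unadjusted edgeR p was under 0.05 for 1 member row (12.1% of all rows) and 1 member sum (12.3% of all sums). After DESeq2's Wald test and adjustment, 1 member row (7.1% of all rows) and 1 member sum (4.6% of all sums) passed. The log2 fold change (low dose over control) lay above 0 in 33 of the 41 member rows, against 45.6% of all rows tested, and its median was 0.66 over the members and -0.13 over all rows. Since copies of 1 number may share reads, these rows are not separate observations. The lowest p belonged to miR-297a-3p, at 573 ± 105 CPM in low-dose and 426 ± 167 CPM in control libraries, with a log2 fold change of 0.86 (SE 0.35, edgeR adjusted p = 0.389). The fit scaled the libraries by TMM, while the CPM are relative to the plain miRNA total, so the fitted value is larger than the CPM means give. DESeq2 called miR-297a-3p and the miR-297 3p sum. The next rows were miR-297c-3p (0.93, SE 0.47), miR-297b-3p (0.81, SE 0.41), miR-467a-3p (0.97, SE 0.50) and miR-467a-5p (0.93, SE 0.51). Of the sums, miR-297 3p differed by 0.78 (95% interval 0.04 to 1.53), miR-467 3p by 0.90 (-0.18 to 1.97), miR-669 3p by 0.79 (-0.19 to 1.78) and miR-466 3p by 0.76 (-0.46 to 1.98) on the log2 scale. Not a single member row had non-overlapping groups, against 1.18% of all rows higher and 6.8% lower in every low-dose library. Without WT controls 1 and 4, the 2 libraries that stood apart, the 4 sums came to 0.57, 0.42, 0.36 and 0.40 in the same order, and the median of the member rows to 0.24. WT control 1 also had the lowest share of miRNA counts and the lowest sperm transcripts of the WT table, at 242 CPM against 451 to 668.2 CPM. Both values are relative to all counts, most of which were structural RNA in that library (8425767 of 11119711). The part of these library traits in the difference was not tested. More structural RNA, fewer cells of a type and less RNA per cell cannot be told apart in such libraries.

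**Figure D3:**
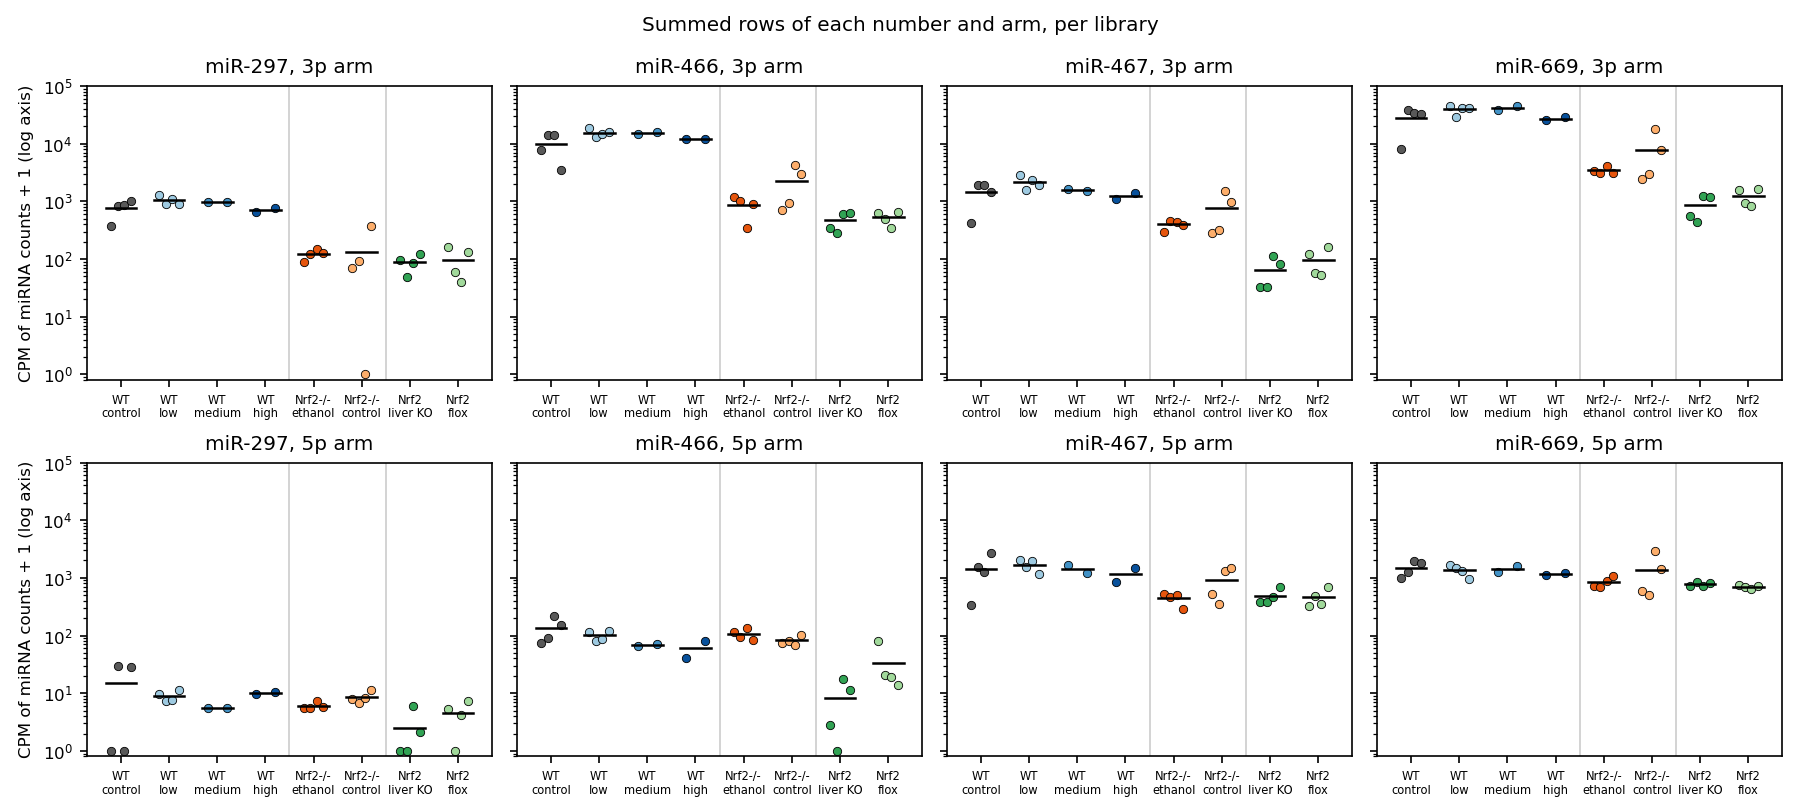
Summed CPM of each number (columns) and arm (rows of panels) in every library, plotted as CPM of miRNA counts + 1 on a log axis, with points for libraries and bars for the mean of the plotted values, and a point at 1 for a sum at 0 CPM. The miR-669 3p sum lies at 2394 to 18024 CPM in Nrf2-/-, 439 to 1621 CPM in Nrf2 liver KO and flox and 8102 to 45654 CPM in WT libraries, with an overlap between Nrf2-/- and WT, whereas the miR-669 5p sum runs from 503 to 2951 CPM over all of them.

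At the medium and high doses no member passed the test either. In the order control, low, medium and high, the miR-669 3p sum averaged 28389 ± 13796, 39224 ± 6782, 41637 ± 5682 and 27050 ± 2238 CPM, and the miR-297 3p sum 767 ± 278, 1039 ± 185, 977 ± 0.7 and 709 ± 64 CPM (SD, n = 4, 4, 2 and 2). The high-dose means lay nearest to control. With edgeR, 0 of 41 member rows passed at the medium and 0 of 41 at the high dose (0% of all 338 rows in each), and 0 of 12 sums in each. Unadjusted p was under 0.05 for 0 member rows and 0 sums at the medium dose (2.66% of all rows and 3.07% of all sums) and for 1 row and 1 sum at the high dose (2.66% and 2.68%). DESeq2 called 0 members at both doses, against 2.07% of all rows at each dose and 0.766% of all sums at the medium and 1.15% at the high dose. The log2 fold change was above 0 in 34 of 41 member rows at the medium dose (44.7% of all rows) and in 24 of 41 at the high dose (43.2%), with medians of 0.59 and 0.09 against -0.14 and -0.09 over all rows. At the medium dose the lowest p values belonged to miR-467c-3p (log2 fold change 1.90, SE 1.03), miR-297a-3p (0.77, SE 0.42), miR-466p-5p (-2.28, SE 1.28), miR-669o-3p (1.25, SE 0.70) and miR-669a-3p (0.94, SE 0.55). At the high dose they belonged to 5 rows with few reads, led by the precursor row mir-466b-1 (-4.89, SE 1.87) and followed by mir-466b-7 (-1.94, SE 1.38), miR-466a-5p (-1.92, SE 1.49), miR-466c-5p (-0.85, SE 0.72) and mir-466b-5 (-1.22, SE 1.33). The miR-669 3p sum differed by 0.81 (-0.36 to 1.98) at the medium and 0.25 (-0.94 to 1.44) at the high dose, the miR-466 3p sum by 0.67 (-0.79 to 2.12) and 0.38 (-1.09 to 1.85), the miR-467 3p sum by 0.37 (-0.92 to 1.65) and 0.09 (-1.21 to 1.39), and the miR-297 3p sum by 0.62 (-0.27 to 1.51) and 0.23 (-0.66 to 1.13). Sperm transcripts were higher in both medium-dose (640 and 586 CPM of all counts) and both high-dose libraries (571 and 660 CPM) than in the 4 WT controls (242 to 532 CPM), and their part in the member levels was not tested. The 4 high-dose values turned negative without WT controls 1 and 4. The fits scaled the libraries by TMM, while the CPM are relative to the plain miRNA total. With the plain total as library size, the high-dose values of the miR-669, miR-297 and miR-467 3p sums were -0.070, -0.11 and -0.20, and miR-466 3p kept its sign. The sign of those high-dose differences thus depended on the scaling. WT high 1 had the most epididymal transcripts of the WT table (1827 CPM, against 95.1 to 613 CPM in the others), and its member share of 4.12% lay close to the 4.58% of WT high 2.

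Taking the 3 doses together against control, 0 of 41 member rows passed with edgeR (0% of all rows), 0 rows and 1 sum had an unadjusted p under 0.05 (11.2% of all rows and 13% of all sums did), and DESeq2 called 0 sums (3.83% of all sums) and 1 row, miR-297a-3p (5.92% of all rows were called). The log2 fold change lay above 0 in 31 of 41 member rows (41.1% of all rows), with a median of 0.25 against -0.21 over all rows. miR-297a-3p had a log2 fold change of 0.64 (SE 0.31, edgeR adjusted p = 0.441). miR-297b-3p (0.66, SE 0.37), miR-669o-3p (0.91, SE 0.54), miR-669a-3p (0.70, SE 0.42) and miR-669d-5p (0.65, SE 0.40) came next. The miR-669, miR-466, miR-467 and miR-297 3p sums had log2 fold changes of 0.62 (SE 0.40), 0.60 (SE 0.49), 0.45 (SE 0.43) and 0.55 (SE 0.30). These comparisons share the 4 WT controls, so their similar signs are not separate evidence.

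**Figure D4:**
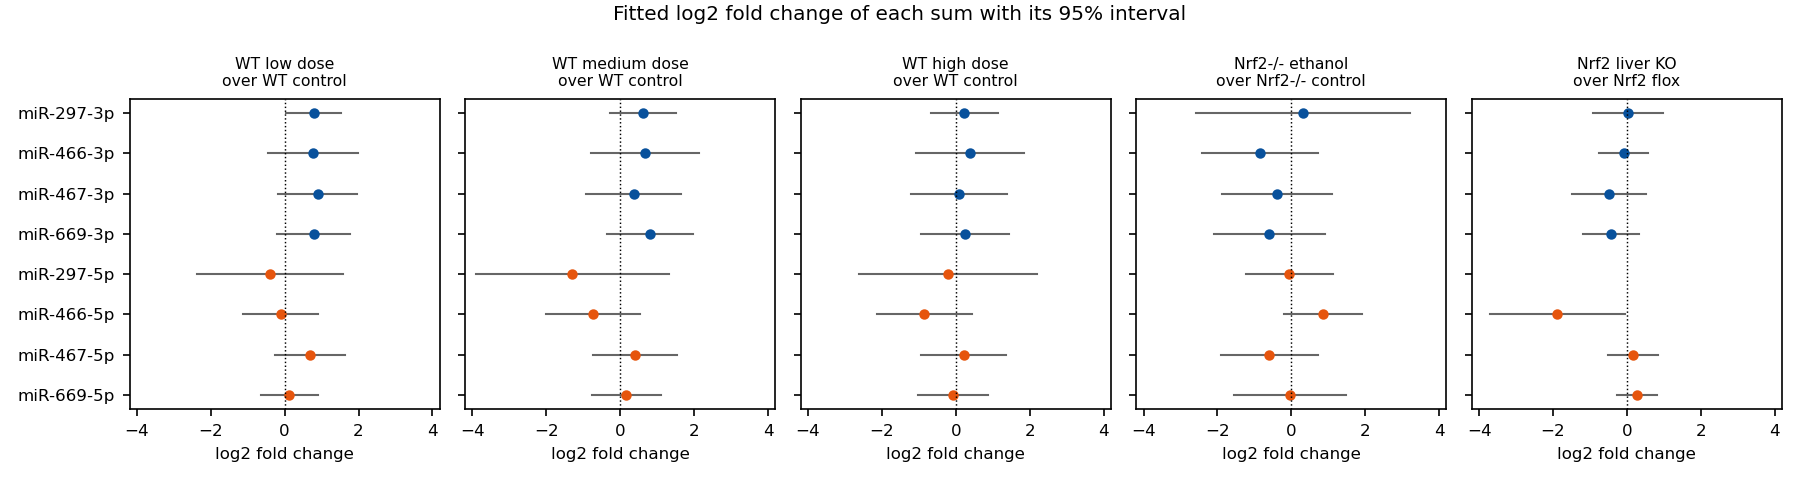
Fitted log2 fold change (x axis) of the 3p sums (blue) and 5p sums (orange) in 5 comparisons (panels, tested over control group), with 95% intervals from edgeR. Every interval of a 3p sum includes 0 except miR-297 3p at the low dose (0.04 to 1.53), no adjusted p passed 0.05, and miR-297 5p was not tested in the last panel.

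In Nrf2-/- sperm the ethanol libraries were alike and the controls were not. The member share was 0.631%, 0.597%, 0.662% and 0.607% in ethanol libraries 1 to 4, against 0.468%, 0.526%, 2.83% and 1.53% in controls 1 to 4. All 4 ethanol libraries lay between the 2 pairs of controls. The miR-669 3p sum was 3359, 3069, 4146 and 3134 CPM in ethanol libraries, against 2394, 2952, 18024 and 7918 CPM in controls, and the miR-467 3p sum 291, 461, 446 and 389 CPM in ethanol libraries, against 277, 313, 1531 and 993 CPM in controls. The miR-466 3p sum was 1168, 1021, 347 and 890 CPM in ethanol libraries, against 717, 927, 4288 and 2939 CPM in controls. The miR-297 3p sum was 87.9, 121, 145 and 125 CPM in ethanol libraries, against 67.8, 89.6, 0 and 370 CPM in controls. Controls 3 and 4 thus stood apart from controls 1 and 2 in each 3p sum except miR-297. The same 2 controls had the highest sperm transcripts, at 744 and 949 CPM, against 176 and 216 CPM in controls 1 and 2 and 223 to 301 CPM in ethanol libraries. They had the lowest epididymal transcripts, at 50.99 and 37.4 CPM, against 1555 and 1307 CPM in controls 1 and 2 and 184 to 429 CPM in ethanol libraries. The part of these transcripts' source in the member levels was not tested.

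**Figure D5:**
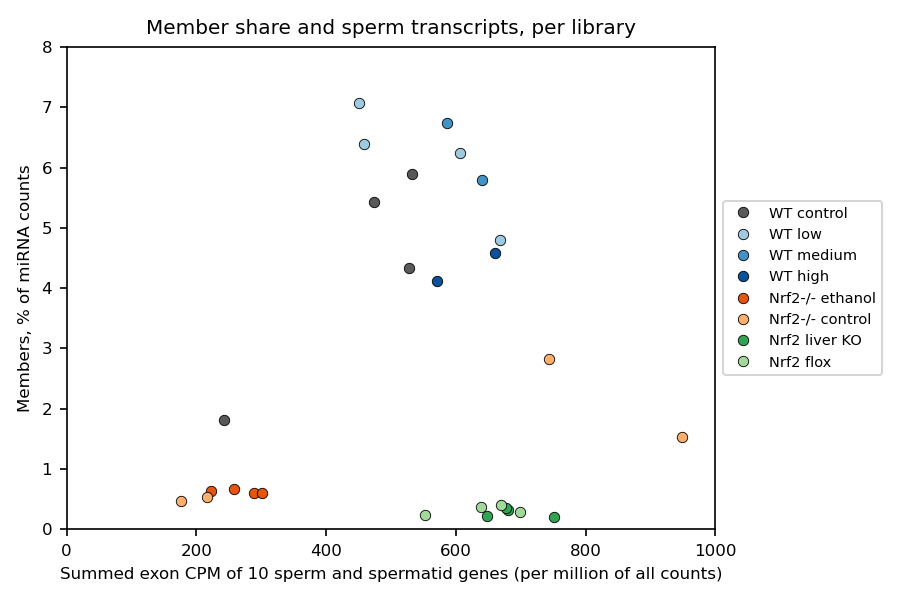
Member share of miRNA counts (y axis, percent) against the summed exon CPM of 10 sperm and spermatid transcripts (x axis), 1 point per library, coloured by group. Nrf2-/- controls 3 and 4 (744 and 949 CPM) and WT control 1 (242 CPM) lie apart from the other libraries of their groups on both axes, while Nrf2 liver KO and flox libraries combine 552 to 752 CPM with shares of 0.403% or less.

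With edgeR, 0 of 24 member rows and 0 of 11 sums passed between ethanol and control Nrf2-/- libraries (0% of all 237 rows). Unadjusted p was under 0.05 for 0 member rows and 0 sums (1.27% of all rows and 1.69% of all sums), and DESeq2 called 0 of each (0% of all). The log2 fold change was above 0 in 8 of 24 member rows (47.7% of all rows), with a median of -0.33 against -0.07 over all rows. The lowest p values belonged to miR-669o-3p (-1.22, SE 0.65), miR-466c-5p (1.39, SE 0.98), miR-467e-5p (-0.81, SE 0.68), miR-467d-5p (-0.73, SE 0.67) and miR-669a-3p (-0.74, SE 0.70). The miR-466, miR-669 and miR-467 3p sums had log2 fold changes of -0.84 (-2.41 to 0.73), -0.59 (-2.10 to 0.92) and -0.40 (-1.88 to 1.09), and the miR-297 3p sum 0.32 (-2.57 to 3.21). Without controls 3 and 4, these values became 0.62, 0.97, 1.06 and 1.24, and 26 of 27 member rows tested lay above 0 (139 of all 280 rows), with a median of 0.80 against -0.006 over all rows. No member passed in that comparison of 4 ethanol with 2 control libraries either. The sign of the difference thus depended on which controls were used.

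Between Nrf2 liver KO and Nrf2 flox sperm, the sums of members overlapped at low levels. The miR-669 3p sum was 549, 439, 1226 and 1206 CPM in liver KO libraries, against 1562, 934, 819 and 1621 CPM in flox libraries. The miR-669 5p sum, nearly all miR-669c-5p, was 723, 832, 707 and 803 CPM in liver KO libraries, against 752, 702, 631 and 733 CPM in flox libraries. The miR-467 5p sum was 381.8, 388, 466.4 and 702 CPM in liver KO libraries, against 325, 485.5, 353.7 and 697 CPM in flox libraries. The groups overlapped in each. Epididymal transcripts did not overlap, at 188, 271, 496 and 157 CPM of all counts in liver KO libraries, against 641, 661, 790.0 and 620 CPM in flox libraries. Of the 8 genes, 2 to 4 were at 0 in a liver KO and 1 to 3 in a flox library, and their part in the member levels was not tested. With edgeR, 0 of 20 member rows and 0 of 7 sums passed (0% of all 295 rows), unadjusted p was under 0.05 for 0 rows (13.6% of all rows) and 1 sum (11.2% of all sums), and DESeq2 called 0 of each (0% of all). The log2 fold change was above 0 in 12 of 20 member rows (51.9% of all rows), with a median of 0.11 against 0.03 over all rows. That 1 sum was miR-466 5p, at 7.18 ± 7.64 CPM in liver KO and 32.2 ± 31.1 CPM in flox libraries (SD, n = 4 each), and the flox mean rests on 78.6 CPM in flox 1 against 12.8 to 19.8 CPM in the other 3. miR-669f-3p (-0.68, SE 0.45), miR-669c-5p (0.40, SE 0.27), miR-467d-5p (0.45, SE 0.36) and the identical rows miR-669a-3p and miR-669o-3p (-0.32, SE 0.32) had the lowest p values of the rows. The miR-669, miR-467, miR-466 and miR-297 3p sums had log2 fold changes of -0.42 (-1.18 to 0.34), -0.48 (-1.49 to 0.53), -0.09 (-0.75 to 0.57) and 0.03 (-0.93 to 0.99). With 1 row kept from each set of rows with the same counts, 0 of 12 member rows passed. Not a single member had non-overlapping groups here (0.678% of all rows higher and 3.73% lower in every liver KO library) or in the Nrf2-/- comparison (0.844% and 2.95%).

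The response to alcohol was also set side by side between genotypes, as the Nrf2-/- log2 fold change minus the mean of the 3 WT doses, over 20 libraries. It came from 1 joint fit with its own scaling, in which rows missing from 1 table were set to 0. Its values are therefore not the differences of the separate fits. In those, the miR-466 3p sum had -0.84 in Nrf2-/- and 0.60 over the 3 WT doses. The part of the scaling in the values below was not tested. Effects of the 2 tables having been made separately stay in the difference between genotypes where they act unequally on exposed and control libraries. Genotype and table cannot be told apart here either. With edgeR, 0 of 46 member rows and 0 of 12 sums passed (0% of all 382 rows), 2 rows and 3 sums had an unadjusted p under 0.05 (5.24% of all rows and 7.9% of all sums), and DESeq2 called 0 members (0.262% of all rows and 0.344% of all sums). The difference was above 0 in 12 of 46 member rows (49.2% of all rows), with a median of -0.75 against -0.03 over all rows. It was -2.38 (SE 0.97, edgeR adjusted p = 0.606) for the miR-466 3p sum, -2.04 (SE 0.93) for miR-669 3p, -1.67 (SE 0.92) for miR-467 3p and -1.06 (SE 1.34) for miR-297 3p. Among rows, miR-466e-3p had 13.1 (SE 3.63, edgeR adjusted p = 0.396), a value that rests on 1 library of each table, WT control 4 with 1879 reads and Nrf2-/- ethanol 3 with 442. miR-669o-3p (-2.48, SE 0.91), miR-669a-3p (-1.75, SE 0.91), miR-466d-3p (-2.05, SE 1.07) and miR-467e-5p (-1.53, SE 0.82) followed. Without Nrf2-/- controls 3 and 4 the 4 sums came to -0.43, 0.01, 0.26 and 0.35 in the same order.

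The host gene and the processing machinery showed no change past the test. Sfmbt2 exons had 10 to 54 reads in a WT library, 1 to 32 in an Nrf2-/- library and 6 to 31 in a Nrf2 liver KO or flox library, so only large differences could be seen. Sfmbt2 exon reads averaged 5.31 ± 0.96 CPM of all counts at the low dose and 4.22 ± 2.36 in WT controls, 2.17 ± 0.96 in Nrf2-/- ethanol and 2.93 ± 2.61 in Nrf2-/- control libraries, and 4.88 ± 3.65 in Nrf2 liver KO and 5.395 ± 1.34 in Nrf2 flox libraries (SD, n = 4 each). Its log2 fold change was 0.32 (SE 0.30, edgeR adjusted p = 0.908) on exons and -0.26 (SE 0.24) on introns at the low dose, -0.35 (SE 0.79) on exons and 0.22 (SE 0.45) on introns in Nrf2-/-, and 0.04 (SE 0.45) on exons in liver KO. As CPM of all counts, Sfmbt2 exon reads were lowest in WT control 1 (0.899 CPM) and Nrf2-/- control 1 (0.207 CPM), the libraries with the lowest member share of their tables. Most counts of WT control 1 were structural RNA. In the Nrf2 liver KO and flox table the library with the lowest member share, liver KO 2 (0.202%), had the highest Sfmbt2 exon level of the 28 libraries (9.52 CPM of all counts). Without Nrf2-/- controls 3 and 4, the Sfmbt2 exon value became 2.26 (edgeR adjusted p = 0.011), against 1 and 7 reads in the 2 controls that were left, but 40% of all 13837 features tested (5529) passed in that fit. Exon and intron rows of Drosha and Dgcr8, which cut the hairpin from its transcript, of Xpo5, which exports it, of Dicer1 with its partners Tarbp2 and Prkra, and of the Argonautes Ago1 to Ago4 were tested in the same comparisons where they passed the filter on low counts. With edgeR, 0 of 16 such rows passed at the low dose, 0 of 11 in Nrf2-/- and 0 of 10 in liver KO (0% of all features that are not miRNAs in each), with 1, 1 and 0 at an unadjusted p under 0.05 (7.78%, 4.9% and 12.9% of all such features), and DESeq2 called 0 in each (0.172%, 0.136% and 1.29%).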

How the data were processed

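Small RNA counts from 28 sperm libraries were used as the authors deposited them, in 3 tables of whole-number counts per feature (8 feature classes, 0 unused columns). The aligner, counter and genome build are not stated in the labels. Columns were matched to libraries by the titles and descriptions in the labels. The description of WT medium 1 points to a column headed with an H, like the columns of the high dose, while its title names the medium dose. The title was followed, and the medium and high groups depend on it. Rows were selected by name and CPM was taken over the miRNA total of a library. The members, marker lists and gene lists were chosen with earlier results of these data known.

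Each table was fitted across all of its miRNA rows, its number-and-arm sums and its other features with edgeR 4.0.16 in R 4.3.3 (filterByExpr, TMM within miRNAs, quasi-likelihood F test, Benjamini-Hochberg adjustment at 0.05), and the fits were tested on simulated data. Both genotypes' alcohol responses were compared in 1 fit of 20 libraries. DESeq2 1.42.0, other library sizes, no filter, only the groups compared, an adjusted p of 0.1, a replicate block and leaving out each library were alternatives. Leaving out pairs of libraries and keeping 1 row per set of equal rows were added after seeing the data. A 0 counted as a gap where the remaining libraries of the table predicted 50 reads or more. Text names the 6 rows highest in mean CPM, the 8 sums by number and arm, and the 5 rows of lowest p in each comparison. A count of 0 allows up to 3 reads, a limit for counting error only. Figures used matplotlib 3.10.9.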

Additional observations from a re-analysis of the deposited data

Results flagged for a closer look

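The 15 quantities examined were the 8 sums by number and arm, the sum of all members and the 6 most abundant rows. In 2 of the 90 groups of 4 libraries, 1 library lay far from the other 3 relative to the group's range (gaps of 0.893 and 0.865 of the range, past the 95% critical value of Dixon's test), and chance alone gives about 1 in 20 groups. The miR-466 5p sum was 78.6 CPM in Nrf2 flox 1, against 12.8 to 19.8 CPM in the other 3 Nrf2 flox libraries. The miR-297 5p sum was 6.40 CPM in Nrf2-/- ethanol 3, against 4.45 to 4.71 CPM in the other 3 ethanol libraries.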

How the results depend on the processing

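The count of members past the threshold stayed at 0 under 113 of 120 alternatives and all 136 omissions of 1 library. It became 1 with DESeq2 for rows and for sums at the low dose and for rows over the 3 doses (miR-297a-3p and the miR-297 3p sum). Without the filter it became 1 at the low dose, over the 3 doses, in Nrf2-/- and in the difference between genotypes, each time miR-466e-3p, which rests on WT control 4 and Nrf2-/- ethanol 3. Of the log2 fold changes of rows, 284 of 294 alternatives kept their direction and side of the threshold, and of the sums 218 of 240. The plain miRNA total moved the median of all rows to -0.61 at the low dose. Divided by the miRNA total without gap rows, the member counts came to a mean of 7.06% in WT control libraries. They came to 12.3% at the low, 12.6% at the medium and 8.13% at the high dose. The member counts still held the gap rows that the total left out, so these values are not shares of that total. The cause of the changes below was not tested.

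Without WT controls 1 and 4, log2 fold changes reversed to -0.0875 (miR-467 3p, medium), -0.011, -0.016, -0.41 and -0.21 (miR-297, miR-466, miR-467 and miR-669 3p, high) and -0.025 (miR-467 3p, 3 doses). With the plain miRNA total they reversed to -0.11, -0.20 and -0.070 (miR-297, miR-467 and miR-669 3p, high), and the miR-297 3p sum to -0.14 in Nrf2-/- and -0.13 in liver KO. With the total without gap rows that sum was -0.26 and -0.13, and with the total of all classes it was -0.29 in liver KO, where miR-669c-5p was -0.014. Without Nrf2-/- controls 3 and 4, the Nrf2-/- values became 0.0858 (miR-669o-3p), 0.71 (miR-467e-5p), 0.67 (miR-467d-5p), 0.93 (miR-669a-3p), 0.62, 1.06 and 0.97 (miR-466, miR-467 and miR-669 3p) and 2.26 (Sfmbt2 exons), and the differences between genotypes 0.16 (miR-669a-3p), 0.25 (miR-467e-5p), 0.35, 0.26 and 0.0056 (miR-297, miR-467 and miR-669 3p). Without Nrf2-/- control 3 and ethanol 3, the miR-297 3p sum was -0.38 and Sfmbt2 exons 0.015. Without the filter, Sfmbt2 exons were at -0.024 in liver KO.

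Omitting 1 library at a time gave -0.13 to 0.49 (miR-467 3p, high), -0.11 to 1.68, -0.83 to 0.032 and -1.04 to 0.072 (miR-297, miR-467 and miR-669 3p, Nrf2-/-), -0.71 to 0.28 and -0.0088 to 0.45 (Sfmbt2 exons and introns, Nrf2-/-), -0.23 to 0.34, -0.25 to 0.10 and -0.47 to 0.28 (miR-297 3p, miR-466 3p and Sfmbt2 exons, liver KO) and -1.65 to 0.92 (miR-297 3p, difference between genotypes).

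The correlation of deviations of libraries of the same replicate number was -0.37 to -0.06 at the low dose (4 pairs), 0.11 and 0.14 at the medium and 0.14 and 0.06 at the high dose (2 pairs each), -0.01 to 0.16 in Nrf2-/- and -0.30 to 0.42 in liver KO (4 pairs each). In no comparison did 3 or more pairs all pass 0.1, so the libraries were taken to share a number only. The replicate block changed no member's call (miR-297a-3p at the low dose 0.90), but gave Sfmbt2 exons 0.11 in Nrf2-/- and -0.092 in liver KO.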
